A study of Cicer arietinum with 8 samples.

Results

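Transcripts of 3 small cysteine-rich peptides were followed through the cold response of chickpea (Cicer arietinum) leaves and flowers. They were chosen by the identifier in the scanner files, with their cold over control ratios already known, and were 3 of the 756 experimental features of the array. U280 (CV793608) was a chickpea clone described as a SNAKIN2 antimicrobial peptide precursor. U298 (CV793588) was a chickpea clone annotated with the gamma-thionin defensins and protease inhibitors. LS0989 (DY396423) was a grasspea (Lathyrus sativus) clone described as a gibberellin-regulated protein 3 precursor, so chickpea RNA was measured there on the probe of another species.

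Snakins are secreted peptides, first purified from potato, that inhibit bacteria and fungi in culture. They belong to the family called GASA after its gibberellin-stimulated members in Arabidopsis, and the gibberellin-regulated proteins are of the same family. Gamma-thionins are the plant defensins, secreted peptides whose fold is held by disulfide bonds between cysteines; many are antifungal and some inhibit digestive enzymes. In tobacco and petunia, defensin transcripts are known for high levels in floral organs. In potato, snakin transcripts are likewise known from flowers and other young organs.

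Cold-treated plants were set against untreated plants of the same genotype and tissue on a cDNA array with 2 channels. The cold tolerant genotypes were Sonali (Tolerant1) and ILC 01276 (Tolerant2), and the cold susceptible ones were Amethyst (Susceptible1) and DOOEN (Susceptible2). Leaves and flowers of each made up 8 groups, from 5 treated and 5 control plants. Per the study's methods, the samples called flowers here were of flowers, buds and immature pods, and RNA came from pooled tissue. The treatment began 2 weeks after flowering and lasted 7 nights at 5 °C with days of 12 h at 15 to 25 °C, while the control plants had no cold nights. Per the labels the replicates were biological; 22 distinct hybridisations were available, 3 per group but 2 in Tolerant2 flowers and in Susceptible2 flowers, where the third deposited replicate held the values of the first and was counted as 1 sample with it. Of the 9 features for chlorophyll a/b binding proteins, the antenna proteins of leaves, 8 could be tested between untreated tissues: 1 was higher in leaves and 1 lower, where 16.8% of all features tested were higher and 18.9% lower. Of their 936 unflagged spots 415 were near the scanner ceiling described below, so most of these features could not serve as a check of the tissue. With those spots left out 3 could be tested, of which U472 was higher in leaves (0.89, limma adjusted p = 0.0290) and CA0426 lower (-1.49, adjusted p = 0.00472).

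Each feature was printed as 6 spots, and a value below is the mean over the spots that the image software had not flagged in either channel. Ratios are log2 of cold over control after within-array loess normalization, so that 1 is a doubling. The share of unflagged spots ran from 17.7% to 76.4% between hybridisations. The scanner could not record a pixel above 65535 units, and a spot was taken as near this ceiling where its median signal reached 95% of it. In flowers of Tolerant2 and Susceptible2, 20.0% to 27.5% of the unflagged spots were near the ceiling in at least 1 channel. There, 51 and 68 of the 756 features had every unflagged spot of every replicate near the ceiling in both channels, and a ratio of such spots stays near 0 whatever the transcripts did. As U280 and U298 were among the brightest features, their ratios are given below with the state of both channels. Arrays are few here, and their number limits the precision of every mean.

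In leaves, the SNAKIN2 transcript U280 was higher after cold in all 11 hybridisations that measured it, and the 4 genotype means lay between 2.22-fold and 3.15-fold. In whole organs, a change in the share of cells that hold a transcript and a change in its amount per cell cannot be told apart. In Tolerant1 leaves its log2 ratio was 1.27 in replicate 2 and 1.39 in replicate 3, with a mean of 1.33 ± 0.08 (SD, n = 2). Replicate 1 of that group gave no value, because all 6 spots were flagged: their control signal averaged 3959 units on a local background of 4241. In Tolerant2 leaves the ratios were 1.91, 1.74 and 1.32 (mean 1.66 ± 0.30, SD, n = 3). The scanned signal of the first of these was 10233 units in the control channel and 49816 in the cold channel. All 6 spots were near the ceiling in the cold channel, so the ratio of that replicate was limited by it. Without the spots near the ceiling the mean of this group was 1.53 ± 0.29 (SD, n = 2).

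The susceptible genotypes had U280 ratios of the same order. In Susceptible1 leaves they were 0.66, 0.79 and 2.00 (mean 1.15 ± 0.74, SD, n = 3), so replicate 3, the dye-swapped one, stood apart from the other 2. The value of replicate 1 there came from 2 spots. In Susceptible2 leaves they were 1.42, 1.22 and 1.58 (mean 1.41 ± 0.18, SD, n = 3), and 5 of 18 spots were near the ceiling in the cold channel. The ranges of the 4 genotypes overlapped with each other. A mean log2 ratio of at least 1 over 2 or more replicates was reached by U280 in 4 of 4 leaf groups and by U298 in 3 of 4. Among all features tested, 2.95% reached it in Tolerant1 leaves, 1.95% in Tolerant2, 1.39% in Susceptible1 and 1.75% in Susceptible2. In flowers neither reached it in any group, where 0.628% (Tolerant1), 0.376% (Tolerant2), 0.412% (Susceptible1) and 1.87% (Susceptible2) of the features did. In Tolerant2 and Susceptible2 flowers it could not be reached, as nearly all spots of both were near the ceiling in both channels. With the spots near the ceiling left out, U298 also reached it in Susceptible2 leaves (1.18, n = 2). In Susceptible1 flowers its only remaining replicate had 1.55. As the members were chosen on this contrast, these ratios are a description and were not tested.

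The gamma-thionin transcript U298 was also higher after cold in all 11 leaf hybridisations that measured it, but its replicates differed more. In Tolerant1 leaves the ratios were 1.86 in replicate 2 and 1.99 in replicate 3, a mean of 1.92 ± 0.09 (SD, n = 2) or 3.79-fold. In Tolerant2 leaves they were 3.43, 2.32 and 0.94 (mean 2.23 ± 1.25, SD, n = 3), the highest mean of any feature tested in that group and also the widest spread of this transcript. Without replicate 1 the mean was 1.63 and without replicate 3 it was 2.88. The 6 spots within each of these hybridisations agreed to an SD of 0.10 to 0.13, so the spread lay between hybridisations and not between spots. It lay mainly in the control channel: the normalized control levels of the 3 replicates were 10.12, 12.43 and 13.61 on the log2 scale, while the cold levels were 13.55, 14.75 and 14.56. The replicate with the least transcript in untreated leaves was thus the one with the largest ratio; the control value enters both quantities.

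In susceptible leaves the U298 means were lower. Susceptible1 leaves had ratios of 0.66, 1.73 and 1.15 (mean 1.18 ± 0.54, SD, n = 3), the first of them from 1 spot. Susceptible2 leaves had 1.20, 1.16 and 0.56 (mean 0.97 ± 0.36, SD, n = 3). In replicate 3 of that group, which had the lowest ratio, all 6 spots were near the ceiling in the cold channel, and in replicate 2 3 spots were. With the spots near the ceiling left out, the mean became 1.18 ± 0.02 (SD, n = 2). The tolerant and susceptible replicates overlapped, since the lowest tolerant ratio, 0.94 in Tolerant2 leaves, was below 4 of the 6 susceptible ones.

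**Figure D1:**
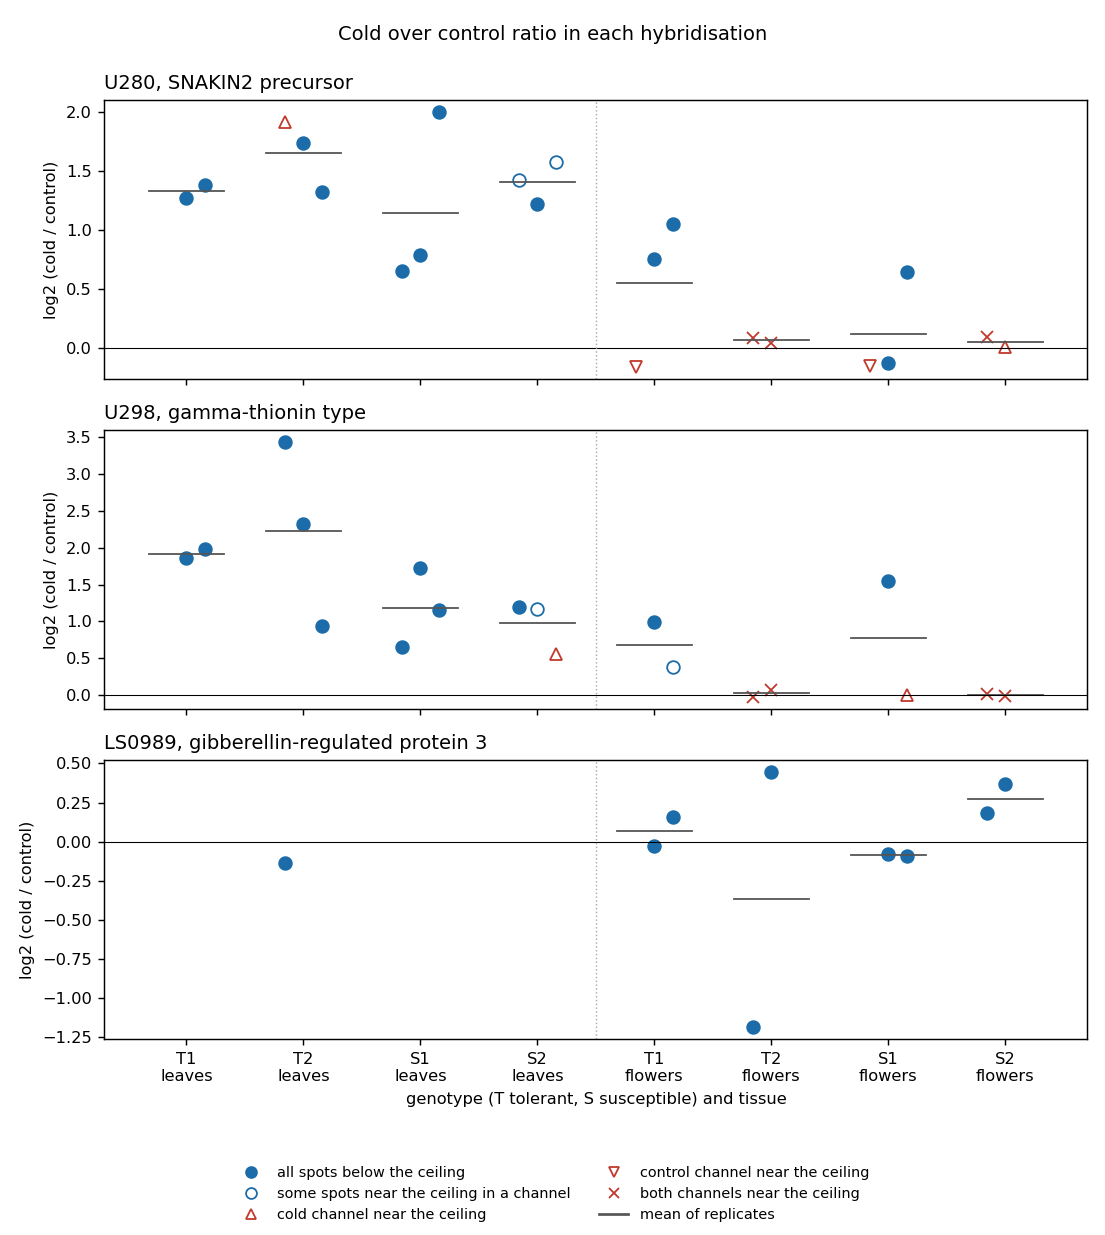
Log2 ratio of cold over control for U280, U298 and LS0989 in each distinct hybridisation of the 8 groups, with bars for the mean of the replicates and symbols for the state of the spots. All 22 leaf values of U280 and U298 lie above 0, and in flowers of Tolerant2 and Susceptible2 every value of both has a channel near the ceiling.

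In flowers the 2 chickpea transcripts could be followed only in part. In Tolerant2 flowers the U280 ratios were 0.09 and 0.05, but all 12 spots were near the ceiling in both channels, with scanned signals of 49980 in the control and 50857 in the cold channel of replicate 1. In Susceptible2 flowers the ratios were 0.09 and 0.01, with 11 of 12 spots near the ceiling in the control and 12 in the cold channel. These 2 groups therefore gave no measurement of a U280 response. In replicate 1 of both Tolerant1 and Susceptible1 flowers, all 6 control spots were near the ceiling, and the ratios were -0.16 and -0.15. The loess curve of these arrays was fitted to such spots too, so the direction of the bias in these ratios is not known.

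The flower hybridisations with U280 spots below the ceiling were replicates 2 and 3 of Tolerant1 and Susceptible1. In Tolerant1 flowers these had ratios of 0.76 and 1.05, a mean of 0.90 ± 0.21 (SD, n = 2) or 1.87-fold. In Susceptible1 flowers they were -0.12 and 0.65, with a mean of 0.26 ± 0.55 (SD, n = 2). With all spots, the means were 0.55 ± 0.63 (SD, n = 3) and 0.12 ± 0.45 (SD, n = 3). Without replicate 3 the Susceptible1 mean was -0.14, so its sign rested on that hybridisation. Over the 4 flower groups the mean was 0.20 with every spot used and 0.58 over the 2 groups that had spots below the ceiling, against 1.39 and 1.38 over the 4 leaf groups. The Tolerant1 flower values below the ceiling lay under both Tolerant1 leaf values and within the range of the Susceptible1 leaf values.

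For U298 the flower values near 0 were, without exception, those with a saturated channel. In Tolerant2 flowers its ratios were -0.02 and 0.07 and in Susceptible2 flowers 0.02 and -0.01, and all 24 spots of these 4 hybridisations were near the ceiling in both channels. In Susceptible1 flowers replicate 3 had a ratio of 0.00 with all 5 cold spots near the ceiling and a control signal of 49215 units. Replicate 2 of the same group was scanned far below the ceiling, at 5515 units in the control and 14832 in the cold channel, and its ratio was 1.55 over 6 spots with an SD of 0.03. Tolerant1 flowers had ratios of 0.99 in replicate 2, below the ceiling in all 6 spots, and 0.39 in replicate 3, where 3 of 6 cold spots were near it. Over the 3 flower hybridisations with spots below the ceiling the ratios ran from 0.39 to 1.55 and all were above 0. The mean of the flower groups was 0.37 with every spot used and 1.12 with the spots near the ceiling left out, which rests on Tolerant1 (n = 2) and Susceptible1 (n = 1).

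Replicate 1 of Tolerant1 flowers and of Susceptible1 flowers gave no value for U298, because all 6 spots were flagged in both. Their control signals, 7911 and 7696 units, were close to local backgrounds of 7317 and 7605, and their cold signals were 1062 and 834. In the same 2 hybridisations the control signal of U280 was near the ceiling, at 54416 and 57455 units, and in replicate 3 of the same 2 groups the control signal of U298 was 37373 and 49215. The hybridisations without U298 signal were quantified in an earlier period than the other replicates of those groups. The part of this period in the missing signal was not tested.

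**Figure D2:**
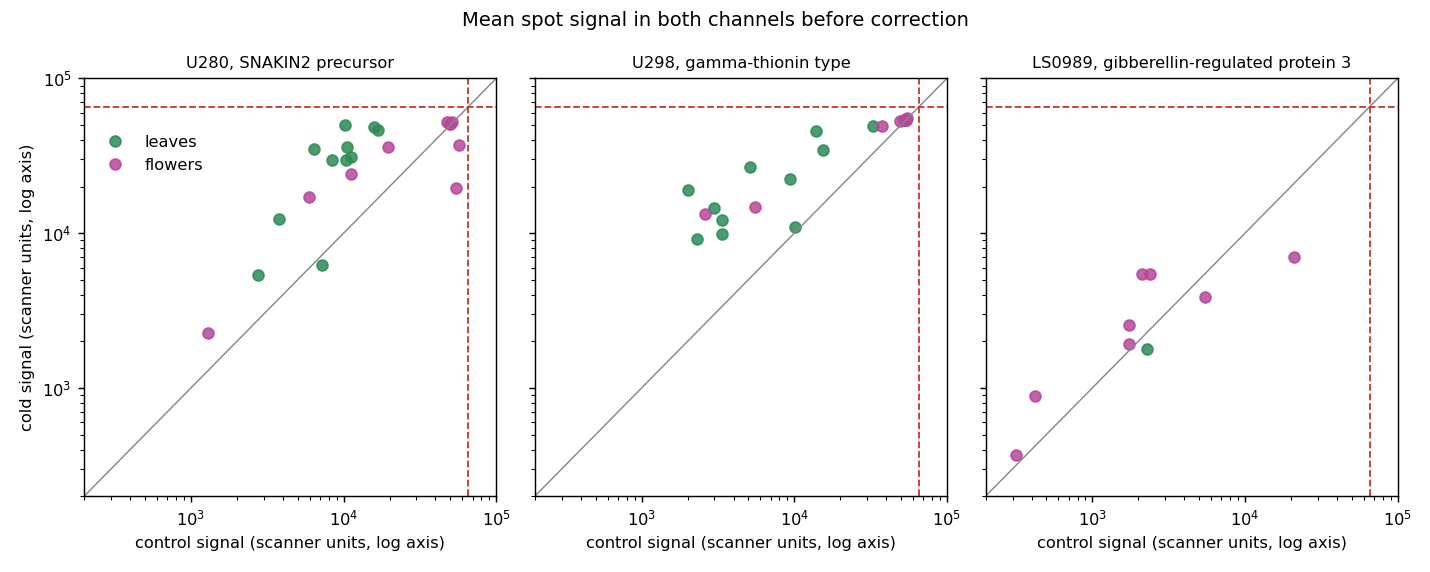
Mean scanned signal of the unflagged spots in the control channel (x axis) and the cold channel (y axis), both in scanner units on log axes, for each hybridisation; the diagonal marks equal signals and dashed lines the ceiling of 65535 units. Leaf points of U280 and U298 lie mostly above the diagonal, while their flower points crowd into the corner under the ceiling, apart from those of Tolerant1 and Susceptible1.

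The gibberellin-regulated transcript LS0989 had unflagged spots in 1 of 12 leaf hybridisations, replicate 1 of Tolerant2, where 3 spots gave a ratio of -0.13. Over all spots, flagged ones included, some leaf signals were near the local background, as in replicate 2 of Tolerant1 with 304 control units on 248. Others were above it in the cold channel: replicate 3 of Susceptible2 had 4356 cold units on 735 beside 2995 control units on 2155, and replicate 2 of Susceptible1 had 582 cold units on 177. As all spots of these hybridisations were flagged, no ratio was taken from them. In flowers it was measured in 8 of 10 hybridisations, at signals well under the ceiling, and its ratio was above 0 in 4 and below 0 in 4. Tolerant1 flowers had -0.03 and 0.16, Susceptible1 flowers -0.08 and -0.09, and Susceptible2 flowers 0.18 and 0.37. The spots of replicate 2 of Susceptible1 flowers were only 2 and differed with an SD of 2.01. Tolerant2 flowers had -1.18 and 0.44 (mean -0.37 ± 1.15, SD, n = 2), values of opposite sign whose control signals were 20836 and 2401 units. The group means of LS0989 in flowers ran from -0.37 to 0.28. With every spot used, those of U280 in flowers ran from 0.05 to 0.55 and those of U298 from 0.00 to 0.78. In Tolerant2 and Susceptible2 the ceiling kept the means of U280 and U298 near 0.

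The level of the transcripts in untreated plants was compared between the tissues. It is the denominator of the ratios on which the members were chosen, so their differences in it are given as a description, without a test. In the control channel U280 and U298 were both higher in flowers than in leaves. On the normalized log2 scale U280 lay between 12.41 and 13.90 in leaves (median 13.17, n = 11) and between 13.25 and 15.14 in flowers (median 14.79, n = 10), so the tissues overlapped at their edges. The leaf minus flower difference was -1.35 (SE 0.25), or 2.54-fold more in flowers. U298 lay between 10.12 and 13.94 in leaves (median 13.06, n = 11) and between 13.56 and 15.56 in flowers (median 15.49, n = 8). Its difference was -2.42 (SE 0.49), or 5.34-fold. Such differences were common: at a limma adjusted p below 0.05, 35.7% of the 488 features tested differed between the tissues, 16.8% being higher and 18.9% lower in leaves.

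The flower side of this comparison was limited by the ceiling. In Tolerant2 and Susceptible2 all control spots of both transcripts in flowers but 1 were near the ceiling, whereas no control spot in leaves was. On the normalized scale, flowers of Tolerant2 had 3.60-fold the U280 level of its leaves and 11.3-fold the U298 level. The last value was 5.80-fold without leaf replicate 1, whose control level was the lowest, and 19.5-fold without leaf replicate 3. For Susceptible2 the values were 3.18-fold and 4.26-fold. These values set the mean of the saturated flower spots against the mean of the leaf replicates, each with a swapped dye in 1 hybridisation. As the saturated spots were normalized within and between arrays like all others, the values are not strict bounds. In Tolerant1 the flower level was 1.55-fold and in Susceptible1 2.32-fold that of leaves for U280, and 3.96-fold and 4.07-fold for U298, with part of the flower spots near the ceiling. The value of 3.96-fold rested on 2 hybridisations of each tissue that differed: it was 9.59-fold without leaf replicate 2 and 1.64-fold without leaf replicate 3, and 6.61-fold or 2.37-fold without flower replicate 2 or 3.

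The size of the difference varied with the period in which the arrays were quantified, and the part of the period, the genotypes and the ceiling in this was not tested. Within the hybridisations of the second period, replicates 2 and 3 of Tolerant1 and Susceptible1, U280 had no spot near the ceiling and its difference was -0.42, with leaves reaching 13.90 and flowers starting at 13.25. U298 differed by -2.04 there (4 leaf and 4 flower hybridisations). In that period 66 of 469 features differed. Within the third period, which held all arrays of Tolerant2 and Susceptible2, the differences were -1.74 for U280 and -2.76 for U298, where 202 of 518 features differed. In the first period 1 leaf and 2 flower hybridisations measured U280, with a difference of -2.56, and no flower hybridisation measured U298.

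**Figure D3:**
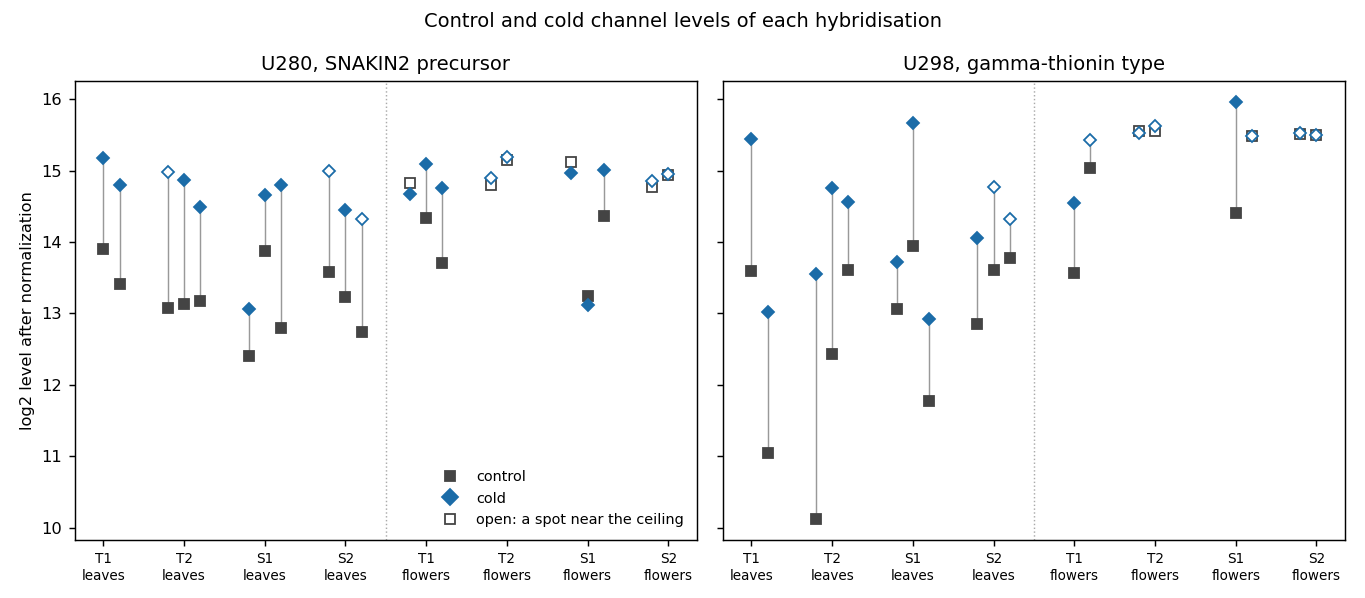
Normalized log2 level of U280 and U298 in the control channel (squares) and the cold channel (diamonds) of each distinct hybridisation by group; a line joins the channels of a hybridisation and open symbols have at least 1 spot near the ceiling. Control levels in leaves lie mostly below those in flowers, and the cold levels of both transcripts in leaves overlap with flower levels that are partly at the ceiling. The cold levels of U298 were lower in leaves by a mean of 1.23, with most of its flower spots near the ceiling.

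In the cold channel the median of U280 was 14.80 in leaves and 14.92 in flowers. There 11 leaf spots and 24 flower spots were near the ceiling, the latter being all those of Tolerant2 and Susceptible2. The flower level was thus limited by it, and the medians cannot be read as equal levels. For U298 the cold medians were 14.33 in leaves and 15.51 in flowers, and the leaf minus flower difference of the cold channel was -1.23 (SE 0.38). Of its spots, 32 of 47 in flowers and 9 of 60 in leaves were near the ceiling in that channel, so its flower level was limited too. Between the tolerance classes, the levels of the members in untreated plants are likewise a description, with 95% intervals that show their precision only. In flowers 35 of 59 control spots of U280 and 26 of 47 of U298 were near the ceiling, which limits their values there. In leaves, tolerant minus susceptible was 0.30 for U280 (interval -0.43 to 1.03) and -0.97 for U298 (interval -2.34 to 0.40), and 0 of 505 features differed at a limma adjusted p below 0.05 (0%). In flowers it was 0.08 for U280 (interval -0.69 to 0.86), -0.30 for U298 (interval -1.88 to 1.29) and 0.46 for LS0989 (interval -0.56 to 1.47), and 1 of 517 features differed (0.193%). The intervals for U298 leave room for differences of over 2-fold in either direction in flowers. For LS0989 the tissues could not be compared, since 3 of the leaf groups had no value.

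A second SNAKIN2 clone on the array, U278 (CV793606), was lower in untreated leaves than in flowers, as U280 was. Its cold ratio in leaves was above 0 in 5 of the 7 hybridisations that measured it, with a mean of 0.59 over the 4 groups. The values below 0 came from Tolerant2. In control plants the mean of U278 was 10.83 in leaves and that in flowers 13.71, and they differed by -2.88 (SE 0.39, interval -3.72 to -2.04, limma adjusted p = 0.000165), the lowest of all 488 features. Of its 59 flower spots, 8 were near the ceiling in the control channel, and without the spots near it the difference was -2.77 (adjusted p = 0.000527). Its signal in leaves was dim, and 7 of 12 leaf hybridisations gave a value. After cold its ratio in Tolerant2 leaves was -1.32, -0.02 and 0.74 (mean -0.20 ± 1.04, SD, n = 3), which spread over both sides of 0 where U280 had 3 values above 1. In Susceptible2 leaves it was 0.86 and 0.30 (mean 0.58 ± 0.40, SD, n = 2), in Tolerant1 leaves 1.57 and in Susceptible1 leaves 0.43, the last 2 from replicate 3 alone.

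In flowers the sign of the U278 ratio differed between genotypes. It was -0.66, -0.24 and -0.87 in Susceptible1 (mean -0.59 ± 0.32, SD, n = 3) and 0.72 and 1.34 in Susceptible2 (mean 1.03 ± 0.43, SD, n = 2, limma unadjusted p = 0.0185, adjusted p = 0.9999). In Tolerant1 it was 0.17, 0.50 and -0.33, and in Tolerant2 -0.18 and -0.01. None of its group means passed the test. Whether U278 and U280 come from separate genes, and how far either probe takes up the transcript of the other, is not given in the sources used here.

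**Figure D4:**
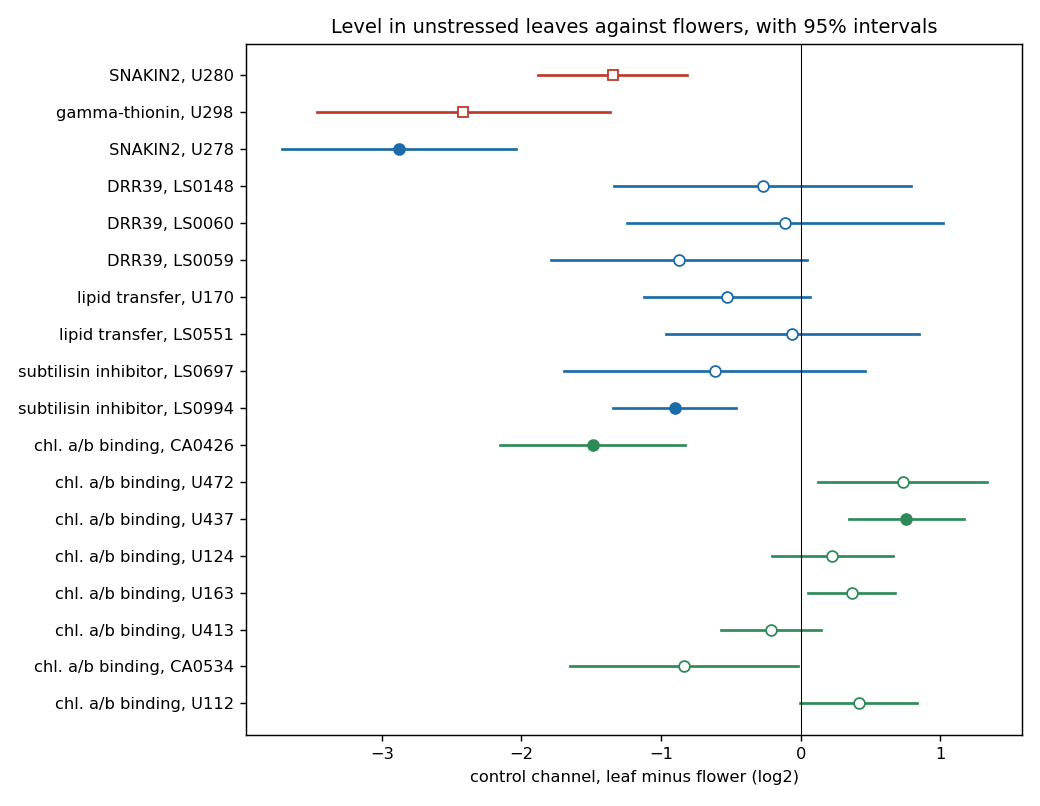
Leaf minus flower difference of the control channel (log2, x axis) with its 95% interval for U280 and U298, the other cysteine-rich peptides and protease inhibitors that could be tested, and 8 chlorophyll a/b binding proteins. Squares are U280 and U298, which were not tested and whose intervals show precision only, and filled circles passed the test. The 3 lowest peptide points are U278 at -2.88, U298 at -2.42 and U280 at -1.35, and the chlorophyll a/b binding proteins lie on both sides of 0.

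None of the other cysteine-rich defence peptides of the array that could be tested was called in any group. The list held 12 features: U278, the defensins, first described in pea, named disease resistance response protein 39 (3) and 230 (4), defence-related peptide 1, and 3 lipid transfer proteins, which carry lipids in the cell wall and can inhibit microbes. A further 3 features were subtilisin inhibitors, which block serine proteases. Of these 15, 4 had no unflagged value in any hybridisation. In each group 5 or 6 of the 12 and 2 of the 3 had the replicates for a test. The response protein 230 features and defence-related peptide 1 had no more than 1 replicate with a value in any group. They were never tested, so nothing can be said of their response. Over the 8 groups limma made 62 tests of the list features and called 0 features, with 2 tests at an unadjusted p below 0.05. The methods' t-test called 0 as well, with 1. The background was low: 0.842% of the features tested were called induced in Tolerant1 leaves and 0.391%, 0.398% and 0.389% in the leaves of Tolerant2, Susceptible1 and Susceptible2, members included, and 0% in each flower group. Called as repressed were 0.421%, 0.195%, 0.398% and 0% in these leaf groups and 0% in flowers.

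The median ratio of the tested list members was -0.37 in leaves of Tolerant1 (5 features), -0.22 in those of Tolerant2 (6), 0.29 in those of Susceptible1 (5) and -0.14 in those of Susceptible2 (6), beside medians over all features between -0.01 and 0.05. In flowers it ran from -0.27 in Susceptible1 to 0.62 in Tolerant2. The highest mean of the list was that of U278 in Tolerant1 leaves, from 1 replicate, followed by 1.20 for a response protein 230 defensin (DY396416) in 1 replicate of Susceptible1 flowers. The lowest was -1.44 ± 2.41 (SD, n = 2, adjusted p = 0.314) for a response protein 39 defensin (DY396276) in Tolerant1 flowers, whose replicates disagreed. Of the list features only U278 and the lipid transfer protein U170 were printed from chickpea. All the others were printed from grasspea, as was LS0989, so chickpea RNA was measured on probes of another species there. Of 8 list features that could be compared between untreated tissues, 2 were lower in leaves, U278 and a subtilisin inhibitor (DY396426, -0.90, SE 0.21, adjusted p = 0.00326), and 0 were higher, beside the 18.9% lower and 16.8% higher among all features. For U170, also among the 8, 42 of 54 flower spots were near the ceiling in both channels. The ceiling thus limited its tissue difference and its cold ratios in flowers.

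**Figure D5:**
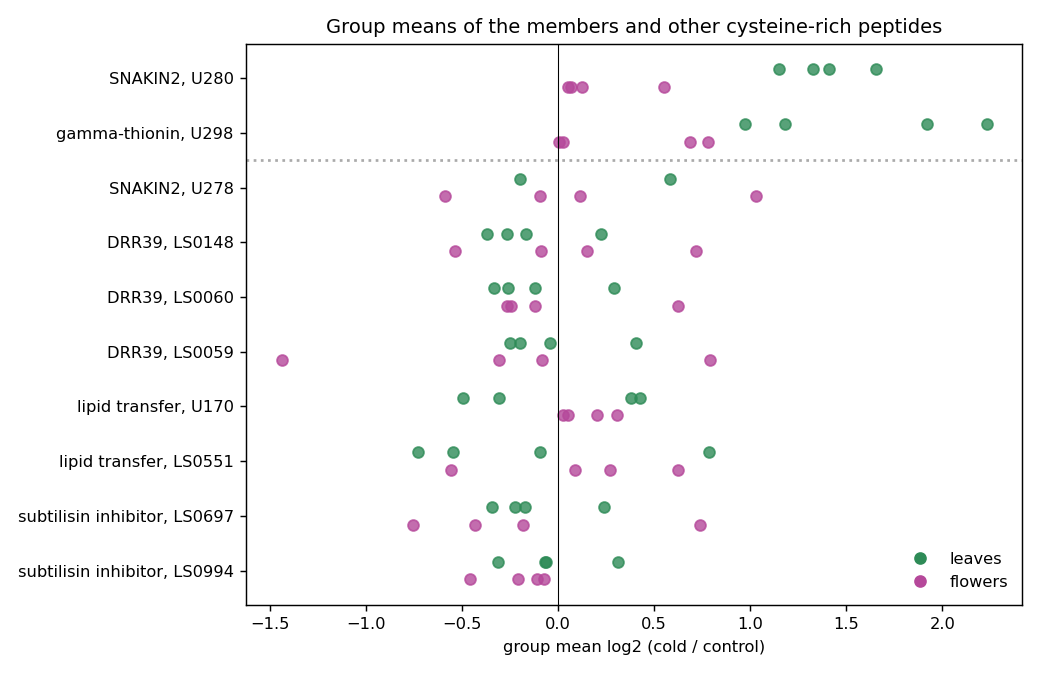
Mean log2 ratio of cold over control in each leaf and flower group with at least 2 replicates, for U280 and U298 (above the dotted line) and for 8 other cysteine-rich peptides and protease inhibitors. The leaf means of U280 and U298 lie between 0.97 and 2.23, and the other features scatter on both sides of 0.

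The dehydrins, which protect cells that lose water and are known to rise in cold, served as a check of the treatment, and none passed the test. A dehydrin described as cold-induced (DY475092) had a mean ratio of 1.01 ± 0.07 (SD, n = 3, limma adjusted p = 0.0823) in Tolerant2 leaves and -0.53 in the 1 replicate that measured it in Tolerant1 leaves. In Susceptible1 leaves it was -0.50, also from 1 replicate, and in Susceptible2 leaves 0.39 ± 0.17 (SD, n = 3). Its flower means ran from -0.13 in Susceptible1 to 0.55 in Tolerant2. A dehydrin-cognate feature (DY396324) had positive means in 7 of 8 groups, the highest 1.20 ± 1.07 (SD, n = 2, adjusted p = 0.382) in Tolerant2 leaves.

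Features with the ratio pattern most like each transcript were sought over the hybridisations that measured both, at least 15 of them. For U280 they were an unknown transcript (DY475377, r = 0.65, n = 21), U298 (r = 0.63, n = 19) and another unknown transcript (DY475310, r = 0.62, n = 20). For U298 they were a transcript of unclear function (DY475222, r = 0.78, n = 19), a probable 3-hydroxyisobutyrate dehydrogenase (DY475417, r = 0.77, n = 15), which takes part in valine breakdown, and a nucleotide-sugar dehydratase (DY475244, r = 0.76, n = 18). U280 came 13th among the 467 features compared with U298. As both were chosen on their cold ratios, their likeness in them is partly set by that choice. U278 was not among the features most like either, with r = 0.03 (n = 17) to U280 and -0.22 (n = 15) to U298. In the control channel the features most like U280 were a 40S ribosomal protein S27A (DY475354, r = 0.91, n = 21), an unknown transcript (DY475054, r = 0.89, n = 21) and a transcript of unclear function (DY475086, r = 0.86, n = 21). Those most like U298 were a transcript of unclear function (DY475218, r = 0.92, n = 19), an acidic 60S ribosomal protein (DY475421, r = 0.90, n = 18) and the unknown transcript CA0820 (r = 0.90, n = 19). There U280 had r = 0.70 with U298 (n = 19) and 0.69 with U278 (n = 17). These are Pearson coefficients across hybridisations, given as a description: the points share arrays, tissue and the ceiling, and the median r over the features compared was between -0.06 and 0.04. LS0989, with 9 hybridisations, had too few for such a comparison.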

How the data were processed

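The authors deposited 48 scanner files with the mean signal, signal median, mean local background and flag of each spot as linear intensity of 1 channel, quantified with ImaGene per the file headers and not normalized. They also deposited a table of log2 values, 1 mean per feature and group, after background subtraction, LOWESS and a shift of unstated size; its direction was taken as cold over control from its correlation with the scanner ratios (r = 0.581 to 0.836 across features), its centring is unknown, and it served only as an alternative. Its column medians were -0.20 (Tolerant1 leaves), -0.18 (Tolerant2 leaves), -0.12 (Susceptible1 leaves), -0.16 (Susceptible2 leaves), -0.03 (Tolerant1 flowers), -0.04 (Tolerant2 flowers), -0.07 (Susceptible1 flowers) and -0.06 (Susceptible2 flowers). Dyes and replicate numbers were taken from file names, and for 22 of 24 hybridisations the header gave matching dyes (none was given for 2). Of the 22 distinct hybridisations 8 had cold RNA in Cy3.

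Signals were corrected with normexp (offset 50) and normalized by loess (span 0.3, 4 iterations; control and flagged spots at weight 0) in limma 3.58.1 under R 4.3.3. Levels of single channels were read after Aquantile scaling. Features with a signal of at least 2 times the background in some channel were kept (738 of 756). A limma model (lmFit, eBayes) over the 8 groups gave ratios, called with 2 or more replicates where the Benjamini-Hochberg adjusted p was under 0.05 and the ratio was 1 or more in size (log2). Control levels were fitted with a dye term and called at an adjusted p below 0.05, the members' values serving as a description because this channel is part of the ratios they were chosen on; all tests were two-sided. The fits were tested on simulated data. The members, the lists and the named features (the members, list features that were called, U278, the highest and lowest list mean, dehydrins, and the 3 most like each member) were chosen with earlier results of these data known. The treatment of spots near the ceiling and the fits within a period were chosen after seeing the data. Alternatives were another background correction, normalization, treatment of flagged spots, dye term, filter, spot summary, scaling, channel, block and omission of each hybridisation. 0 of the 3 members matched the reference gene table, so positions and sequences are not given here.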

Additional observations from a re-analysis of the deposited data

Results flagged for a closer look

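In 3 comparisons every replicate of a flower group had a ratio below 0 and every replicate of another had one above 0. None of these differences was tested. The search ran over all pairs of groups of the same tissue or the same genotype, for the members and U278. With 2 or 3 replicates per group, some such patterns would turn up without any difference between the groups. LS0989 had a mean log2 ratio of -0.09 in Susceptible1 flowers and 0.28 in Susceptible2 flowers, a difference of -0.36 with 2 replicates each. The first group came partly from 2 spots of 1 hybridisation, and the difference was smaller than the pooled replicate SD of LS0989, 0.58. U278 had a mean of -0.59 in Susceptible1 flowers (n = 3) and 1.03 in Susceptible2 flowers (n = 2), a difference of -1.62. Between Tolerant2 flowers, at -0.10 (n = 2), and Susceptible2 flowers the difference of U278 was -1.13. Values with both channels near the ceiling were left out of this search.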

How the results depend on the processing

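The leaf means of U280 and U298 stayed within the spread between replicates, of 0.44 and 0.70 (SD), under every alternative run. With each hybridisation left out in turn they ran from 1.28 to 1.45 and from 1.43 to 1.74, and the flower means from 0.13 to 0.29 and from 0.18 to 0.57. The flower mean of U298 moved from 0.37 to 1.12 with the spots near the ceiling left out. The leaf minus flower level of U280 moved from -1.35 to -0.42 within the second period and to -0.15 in the cold channel. That of U298 moved from -2.42 to -1.46 with flagged spots kept and to -2.04 within the second period. On leaving out single hybridisations it was between -1.49 and -1.24 for U280 and between -2.72 and -2.04 for U298. Without spots near the ceiling neither could be computed, as flowers of 2 groups had none left. The list count of 0 was 0 throughout. Single hybridisations decided several group ratios. LS0989 in Tolerant2 flowers was 0.44 without replicate 1 and -1.18 without replicate 2, and U298 in Susceptible1 flowers was 0.00 without replicate 2 and 1.55 without replicate 3. U298 in Tolerant2 leaves moved from 2.23 to 1.63 without replicate 1 and to 2.88 without replicate 3. The sign turned for U280 in Susceptible1 flowers (-0.14 without replicate 3), LS0989 in Tolerant1 flowers (-0.03 without replicate 3) and, at values near 0 from saturated spots, U298 in Tolerant2 flowers (-0.02 without replicate 2) and Susceptible2 flowers (-0.01 without replicate 1).

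Tolerant and susceptible hybridisations of the same replicate number deviated together in 10 of 11 pairs (r of their ratios -0.11 to 0.79). Of 22 hybridisations, 20 correlated best with their own number. These pairs, Tolerant1 with Susceptible1 and Tolerant2 with Susceptible2 in the same tissue, also shared the dye and the quantification period. Deviations were taken from group means, so with 2 replicates, as in flowers of Tolerant2 and Susceptible2, they nearly mirror each other. The count of 20 was therefore partly fixed in advance, and the part of the dye and the period in it was not tested. With the number as a replicate block, U280 differed between leaves and flowers by -1.40 and U298 by -2.41; over all features that contrast called 92 in place of 174, and the cold ratios 9 in place of 15.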
